A study of Mus musculus with 80 samples.

Results

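The comparison set out here is between livers of mice that had gone 22 h without food and livers of mice of the same group that were still fed, at one circadian phase. It rests on 8 of the 80 libraries of a mouse liver time course, namely the 4 titled fasted at circadian time (CT) 32 and the 4 titled fasted at CT8, chosen by title alone. CT8 lies 24 h before CT32, and food was taken away at CT10, so that the fasted group at CT8 had not yet lost its food. All mice were C57BL/6J, an inbred laboratory strain without a transgene, bought at 8 to 12 weeks of age, given chow and kept in groups of 4 under a light–dark cycle for 10 days, and sampled in constant darkness from day 11. Each group of 4 held 2 males and 2 females, and every mouse gave a single sample from the centre of the left liver lobe, so that CT8 and CT32 are different mice. CT32 also falls 24 h later in darkness than CT8. The 8 libraries titled control, from mice with food at both times, therefore serve as the background for the passage of that day. Values are in the order male 1, male 2, female 1 and female 2 throughout, and a dagger (†) marks a change that lost its call, or moved by more than 1.5 times, when some single mouse of the 8 was left out.

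In the fed liver, insulin favours glycolysis, the making of fatty acids and the making of cholesterol, the latter pair driven by the sterol regulatory element-binding proteins SREBP-1c and SREBP-2. During a fast the liver takes up fatty acids from adipose tissue, oxidizes them in mitochondria and peroxisomes under the nuclear receptor PPARα, exports ketone bodies, and makes glucose from lactate, glycerol and amino acids under glucagon and glucocorticoids. Many of the same genes are also rhythmic, through the circadian clock and through the daily rhythm of feeding, which is why a comparison at equal phase is useful.

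Total gene counts lay between 38197875 and 47462951 at CT8 and between 36300088 and 47037236 at CT32 and did not separate the groups (two-sided exact permutation test, p = 0.429, smallest possible p = 0.0286). The share of counts on Rn18s-rs5, a gene for ribosomal RNA that should be depleted in libraries of polyadenylated RNA, was 1.67%, 2.44%, 0.0908% and 4.88% at CT8 and between 0.0659% and 0.198% at CT32 (exact permutation test on log2 shares, two-sided, p = 0.0571). In the labels the treatment tag of the 8 control libraries reads fasted, against their titles, and the sex tag reads male for every fasted and female for every control library, against the titles of 4 libraries in each group. Groups and sexes follow the titles, while Xist and Ddx3y went with the title in all 80. Hepatocyte markers were high throughout, with a summed level of 79197 to 112064 CPM (read counts scaled to library size) at CT8 and 77272 to 93678 CPM at CT32. Nothing in the labels says whether mice of one group shared a cage. The p-values of genes rest on the spread between mice within groups, estimated over all 80 libraries and not from these 8 alone.

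Between CT8 and CT32 in the fasted group, 4849 of the 21187 genes tested changed (22.9%; edgeR's quasi-likelihood test, adjusted p under 0.05). Of these, 2349 rose (11.1%) and 2500 fell (11.8%), and 613 rose and 882 fell by at least 2-fold. In the control group 805 genes changed over the same 24 h (3.8%), of which 168 rose (0.793%) and 637 fell (3.01%). That control count depended on single libraries, with 2601 genes when control CT8 female 1 was left out. Control CT8 female 2 held 31.3% of its counts on Rn18s-rs5 and a summed 138.9 CPM of T and NK cell markers, against 1.16 to 3.51 CPM over the 8 fasted libraries, and without it 26 control genes changed. Of the 19 genes named here that were called in controls, 18 lost that call without this library, Oat, Bhmt, Gpt2 and Cyp8b1 among them, and none was called when only the libraries compared were fitted. The change differed between the fasted and the control group for 1977 genes (9.33%), being higher in the fasted group for 877 (4.14%) and lower for 1100 (5.19%), and for 1444 genes without that library. The fasted and control changes come from different mice, but this last test uses both, so that 82.8% of its genes being also among the 4849 is not separate evidence.

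Cholesterol synthesis and uptake held the most uniform change. Of 24 genes tested, 23 fell and none rose, with a median log2 change of -2.03 against -0.02 over all genes. Over the same day in control livers the median was 0.62, 5 of the 24 rose (Hmgcs1, Mvd, Fdft1, Tm7sf2 and Hsd17b7) and none fell, but without control CT8 female 2 none of the 24 was called. The difference between the fasted and the control change was lower in the fasted group for 24 of 24, and for 23 without that library. Between 20 and 23 of the genes fell in each of 23 alternative fits that kept the same call.

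Fdps, the farnesyl diphosphate synthase at the branch point of the pathway, had 200.9, 123, 146 and 281 CPM at CT8 and 10.5, 11.5, 9.86 and 13.7 CPM at CT32 (log2 change -4.03, standard error 0.27, adjusted p = 6.96e-15). No library of CT32 came near the lowest library of CT8, in either sex. In control livers Fdps had 141–182 CPM at CT8 and 161–379 CPM at CT32, and the control change was not called (adjusted p = 0.0998). Idi1, which makes the isoprenoid that Fdps extends, fell from 47.9–104 to 2.85–8.498 CPM (log2 change -3.70, standard error 0.32, adjusted p = 7.87e-12), and Sqle, the squalene epoxidase, from 48.2–114 to 2.85–9.86 CPM (log2 change -3.60, standard error 0.38, adjusted p = 9.84e-10). Farther down the pathway Cyp51, the lanosterol demethylase, fell by 9.34-fold and Nsdhl, a later demethylation enzyme, by 9.03-fold. Hsd17b7, which acts late in the pathway, was the only member of the list that was not called in fasted livers (log2 change -0.26, standard error 0.14, adjusted p = 0.185†).

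The promoters of 4 of these genes are shown because the genes moved together and SREBP-2 is known to act on such promoters with the factor NF-Y, which binds the CCAAT box. Sequences are from RefSeq on GRCm38.p6, which is an older build than the GRCm39 named in the processing notes, and each runs from 250 bases before to 50 after the start of transcription. Capitals mark matches, on either strand, to CCAAT, to the sterol regulatory element TCACNCCAC or to the E-box CACGTG. Hmgcs1 lies at chr13:119690101-119690400 and Idi1 at chr13:8885356-8885655, both on the plus strand, Cyp51 at chr5:4104648-4104947 on the minus strand and Nsdhl at chrX:72918271-72918570 on the plus strand.
Hmgcs1: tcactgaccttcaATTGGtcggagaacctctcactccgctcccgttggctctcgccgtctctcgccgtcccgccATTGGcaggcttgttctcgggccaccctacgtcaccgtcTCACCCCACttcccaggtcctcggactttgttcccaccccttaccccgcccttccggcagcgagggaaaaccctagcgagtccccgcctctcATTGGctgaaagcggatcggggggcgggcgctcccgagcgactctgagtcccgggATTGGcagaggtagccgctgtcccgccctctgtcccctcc
Idi1: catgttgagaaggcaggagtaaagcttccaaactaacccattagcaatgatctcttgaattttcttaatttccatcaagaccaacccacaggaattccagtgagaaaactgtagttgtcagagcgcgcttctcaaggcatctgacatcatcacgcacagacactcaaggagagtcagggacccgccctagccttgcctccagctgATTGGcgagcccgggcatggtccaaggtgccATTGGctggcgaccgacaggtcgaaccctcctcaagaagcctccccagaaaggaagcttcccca
Cyp51: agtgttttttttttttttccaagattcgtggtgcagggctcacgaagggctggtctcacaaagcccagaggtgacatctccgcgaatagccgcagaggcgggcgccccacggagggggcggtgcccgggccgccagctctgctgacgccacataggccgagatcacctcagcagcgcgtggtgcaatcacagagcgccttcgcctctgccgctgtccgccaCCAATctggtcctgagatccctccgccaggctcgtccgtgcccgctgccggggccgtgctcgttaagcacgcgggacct
Nsdhl: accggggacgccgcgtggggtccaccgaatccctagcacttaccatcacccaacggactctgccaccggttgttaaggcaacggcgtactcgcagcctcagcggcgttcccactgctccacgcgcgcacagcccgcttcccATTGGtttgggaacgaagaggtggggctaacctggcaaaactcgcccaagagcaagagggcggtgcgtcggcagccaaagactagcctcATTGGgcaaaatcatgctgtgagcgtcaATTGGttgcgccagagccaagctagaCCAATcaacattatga
A promoter was found for 16 of the 24 genes. A CCAAT box lay in at least 1 promoter of 16 of the 16 (100%), against 41.1% of the 27025 genes with a promoter in the table and 12 of 15 clock genes (80%). The sterol regulatory element, spelled strictly, lay in 1 of 16 (6.25%, Hmgcs1) against 1.44% of all, and the E-box in 4 of 16 (25%) against 8.09% of all and 5 of 15 clock genes (33.3%). In Hmgcs1 the single TCACNCCAC match stands among 4 CCAAT matches, none of which share a base with it. These matches are letters in a window and not measured binding.

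**Figure D1:**
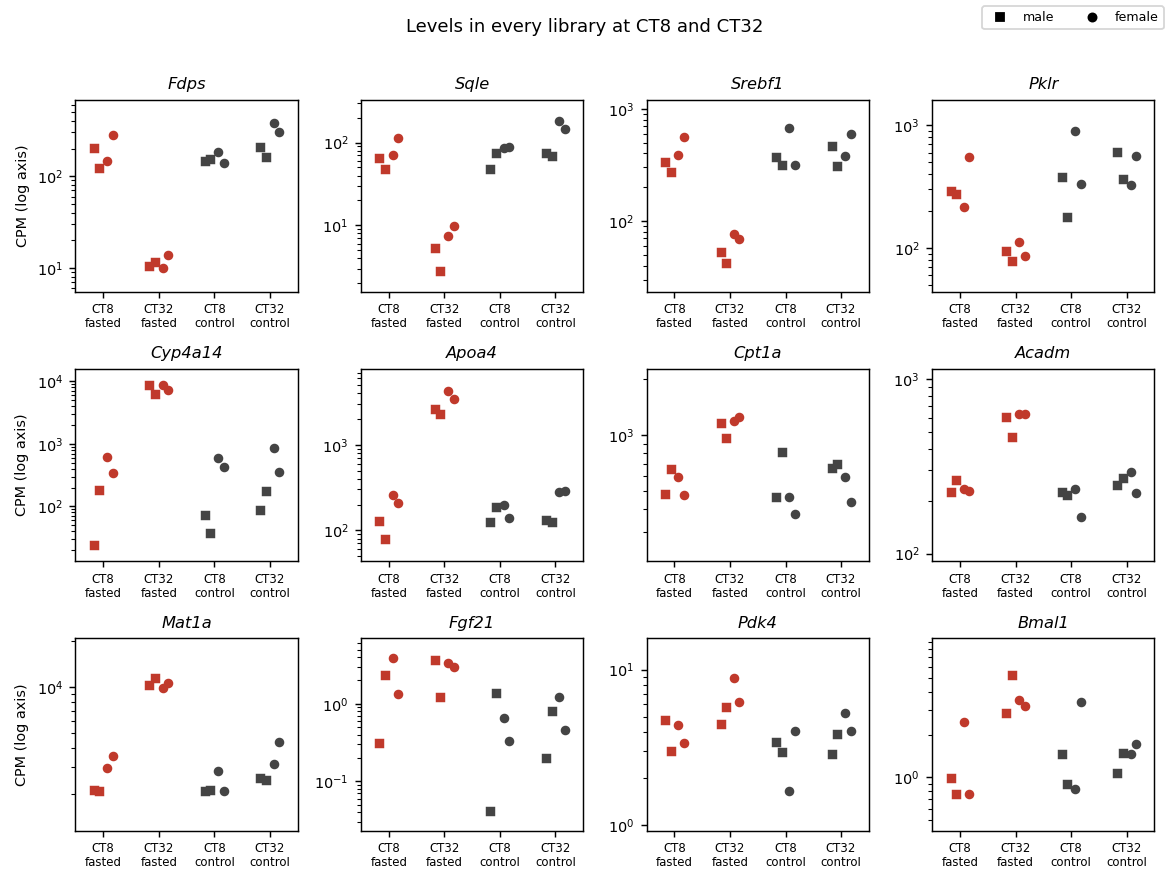
CPM of 12 genes (log axis) in each library of CT8 and CT32, fasted group in red and control group in grey, males as squares and females as circles. Fdps, Sqle, Srebf1 and Pklr were lower, and Cyp4a14, Apoa4, Cpt1a, Acadm, Mat1a and Bmal1 higher, in every fasted library of CT32 than in every fasted library of CT8, while Fgf21 and Pdk4 overlapped.

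Genes of fatty acid synthesis fell along with those of cholesterol synthesis. Of 19 lipogenic genes, 15 fell, 1 rose and 3 were not called, with a median log2 change of -1.40 in fasted and 0.11 in control livers, where none was called. Srebf1, which encodes SREBP-1c, had 334, 273, 387 and 565 CPM at CT8 and 52.9, 42.02, 76.9 and 69.6 CPM at CT32 (log2 change -2.69, standard error 0.29, adjusted p = 1.55e-09). Its target Fasn, the fatty acid synthase, had 646, 574, 744 and 2502 CPM and then 140.4, 116, 210.4 and 178 CPM (log2 change -2.66, standard error 0.38, adjusted p = 9.77e-07). Female 2 of CT8 had the highest Fasn level by a wide margin, but the groups did not overlap without it either. Scd1, the stearoyl-CoA desaturase, had 8704, 7184, 4472 and 13721 CPM and then 3207, 3504, 1668 and 175 CPM (log2 change -2.27, standard error 0.51, adjusted p = 0.000924†), with the females of CT32 far apart from each other but below every library of CT8. Thrsp, a lipogenic regulator, fell from 111–761 to 23.8–93.1 CPM (log2 change -2.37, standard error 0.55, adjusted p = 0.0012†), and Pnpla3, a lipase of lipid droplets that SREBP-1c drives, from 0.356–8.71 to 0.0673–0.262 CPM (log2 change -3.45, standard error 0.81, adjusted p = 0.00132). Aacs, which channels acetoacetate back into lipid synthesis, fell from 64.9–127 to 7.695–13.04 CPM (log2 change -3.24, standard error 0.46, adjusted p = 7.02e-07). The exception was Elovl5, an elongase of polyunsaturated fatty acids, which rose (log2 change 0.78, standard error 0.22, adjusted p = 0.00679).

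Of 12 genes of glycolysis and glucose uptake, 4 rose, 3 fell and 5 were not called, with a median log2 change of 0.00. Pklr, the liver pyruvate kinase, had 293, 275, 215 and 557 CPM at CT8 and 95.4, 79.1, 112 and 86.1 CPM at CT32 (log2 change -1.83, standard error 0.44, adjusted p = 0.00169), and Pfkl, the liver phosphofructokinase, fell by 0.51 on the log2 scale (adjusted p = 0.00128). Tpi1, Eno1 and Pgk1, whose enzymes serve both glycolysis and gluconeogenesis, rose by 0.52, 0.43† and 0.28 on the log2 scale. Among 11 genes of glycogen metabolism, Pygl, the liver glycogen phosphorylase, fell from 354–569.7 to 206–280.1 CPM (log2 change -0.89, standard error 0.19, adjusted p = 0.000617), and Gbe1, the branching enzyme, fell by 0.64† on the log2 scale. Pgm1, the phosphoglucomutase, rose by 0.24†, and Gys2, the liver glycogen synthase, had 314–347 CPM before and 267–340.0 CPM after (log2 change -0.09, standard error 0.16, adjusted p = 0.755†).

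Genes of fatty acid oxidation moved the other way. In mitochondria 13 of 18 genes of β-oxidation rose and none fell, with a median of 0.72 on the log2 scale against 0.22 in controls, where none was called. Acadm, the medium-chain acyl-CoA dehydrogenase, had 225, 264, 235 and 228 CPM at CT8 and 605, 468, 628 and 635 CPM at CT32 (log2 change 1.29, standard error 0.14, adjusted p = 2.92e-09). Cpt1a, which admits long-chain fatty acids to the mitochondrion, had 484, 656, 597 and 473 CPM and then 1163, 962, 1187 and 1257 CPM (log2 change 1.05, standard error 0.16, adjusted p = 2.27e-06), and Etfdh, which passes electrons on from the dehydrogenases, rose by 0.98. Male 2 was the lowest of the CT32 libraries for all 3, yet lay above every library of CT8. The sizes were modest beside the lipogenic falls, since no gene of this list changed by as much as Fasn did.

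Larger rises were found in peroxisomes and in the ω-hydroxylation of fatty acids, where 8 of 12 genes rose and none fell. Cyp4a14 and Cyp4a10, fatty acid ω-hydroxylases that are classical targets of PPARα, had 23.98, 183, 610.4 and 336 CPM and 105, 335, 364 and 249 CPM at CT8. At CT32 they had 8678, 6261, 8647 and 7317 CPM and 4596, 4379, 4175 and 4698 CPM. The change of Cyp4a14 was the largest rise among named genes (log2 change 5.12, standard error 0.58, adjusted p = 5.89e-09), and Cyp4a10 rose by less (log2 change 4.10, standard error 0.37, adjusted p = 2.12e-11). Before the fast the 4 mice were spread widely in Cyp4a14, with male 1 lowest, and after it they lay close together. Cyp4a31 rose by 2.45 and Cyp4a32 by 0.98†, but the Cyp4a genes are close copies, and how reads between them were counted is not given in the sources used here. Ehhadh, the bifunctional enzyme of peroxisomal β-oxidation, had 299.8, 354, 376 and 416 CPM and then 2348, 1118, 3456 and 1827 CPM (log2 change 2.57, standard error 0.24, adjusted p = 4.38e-11).

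Of 16 further targets of PPARα, 9 rose, 1 fell and 6 were not called. Cidec, a protein of the lipid droplet surface, had 2.48, 2.49, 3.74 and 0.994 CPM at CT8 and 48.5, 21.8, 79.1 and 57.6 CPM at CT32 (log2 change 4.32, standard error 0.41, adjusted p = 7.13e-11). Acot1, a thioesterase that frees fatty acids from coenzyme A, rose from 12.5–24.7 to 45.6–209 CPM (log2 change 2.57, standard error 0.44, adjusted p = 2.13e-05), and Plin4, another lipid droplet protein named for the size of its change, from 3.79–15.3 to 34.2–93.7 CPM (log2 change 3.25, standard error 0.40, adjusted p = 4.41e-08). Apoa4, an apolipoprotein outside this list that the fasting liver secretes, rose from 78.2–257 to 2275–4266 CPM (log2 change 4.32, standard error 0.35, adjusted p = 7.81e-13). The member that fell was Fabp1, the liver fatty acid-binding protein, with 3267, 3783, 2647 and 2779.7 CPM and then 2126, 855, 2189.7 and 1688 CPM (log2 change -0.86, standard error 0.29, adjusted p = 0.0251†). Fabp5, a relative of Fabp1 outside the list, fell far more, from 34.5–142 to 1.66–6.91 CPM (log2 change -4.28, standard error 0.40, adjusted p = 6.03e-11).

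Several genes that are commonly used as marks of fasting were not called at this phase. Fgf21, the hepatokine that PPARα induces, had 0.313, 2.33, 3.86 and 1.35 CPM at CT8 and 3.63, 1.23, 3.32 and 2.996 CPM at CT32 (log2 change 0.56, standard error 0.65, adjusted p = 0.598†). Pdk4, the kinase that shuts pyruvate dehydrogenase, had 4.73, 3.01, 4.399 and 3.38 CPM and then 4.46, 5.72, 8.82 and 6.16 CPM (log2 change 0.67, standard error 0.52, adjusted p = 0.394). Angptl4, an inhibitor of lipoprotein lipase, had 87.4, 129, 68.3 and 95.2 CPM and then 143, 130.3, 211 and 198 CPM, so that the groups did not overlap by a narrow margin but the test did not call it (log2 change 0.83, standard error 0.43, adjusted p = 0.169). Plin2, the main lipid droplet protein of hepatocytes, had 323–468 CPM and then 324–717 CPM (log2 change 0.53, standard error 0.23, adjusted p = 0.0849†). Without male 1 of CT32 the change of Fgf21 was 0.08. Angptl4 was called with no filter on low counts, with only the libraries compared and with only the 40 fasted libraries, and Pdk4 with no filter and with only the libraries compared. All 4 estimates were positive, and none of them excludes a moderate rise.

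The time course shows where CT32 falls for these genes. In fasted livers Fgf21 had 17.5 ± 10.4 CPM (SD, n = 4) at CT24, 2.796 ± 1.07 CPM at CT32 and 16.2 ± 8.396 CPM at CT44, while control livers had a mean of 0.668 CPM at CT32. Pdk4 had 245 ± 157 CPM at CT20, 6.29 ± 1.83 CPM at CT32 and 264 ± 77.1 CPM at CT44 in fasted livers. Angptl4 had 360.3 ± 53.1 CPM at CT20, 171 ± 39.8 CPM at CT32 and 365 ± 95.7 CPM at CT44. Each of the 3 thus had a lower fasted mean at CT32 than both earlier and later in the fast. Cyp4a14 also had its lowest mean of the listed times at CT32, though within its spread of that at CT20, with 8473 ± 2131 CPM at CT20, 7726 ± 1165 CPM at CT32 and 10686 ± 1396 CPM at CT44. These levels are given as a description, and differences between times other than CT8 and CT32 were not tested.

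**Figure D2:**
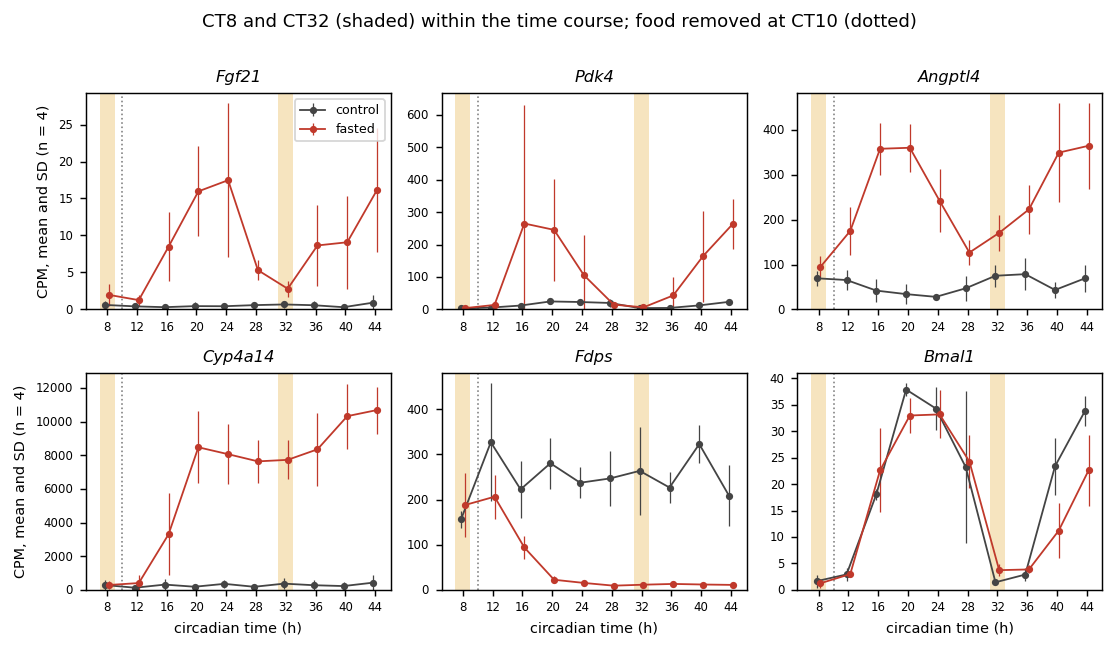
Mean CPM with SD (n = 4 libraries) of 6 genes from CT8 to CT44 in fasted (red) and control (grey) livers, with CT8 and CT32 shaded and the removal of food at CT10 dotted. Fgf21, Pdk4 and Angptl4 had lower fasted means at CT32 than at CT20 and CT44, whereas Cyp4a14 stayed high and Fdps low from CT20 on.

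Genes of ketone body synthesis and export rose in part, with 4 of 7 higher and none lower, and between 1 and 4 higher over the alternative fits. Only 1 of the 7 had a change called higher than in controls. Acat1, a mitochondrial thiolase, had 318, 331, 316 and 419 CPM at CT8 and 564, 414, 515 and 634 CPM at CT32 (log2 change 0.62, standard error 0.18, adjusted p = 0.0115†), with overlapping groups. Slc16a7, a monocarboxylate transporter, rose by 0.73, and a related transporter outside the list, Slc16a5, rose from 3.19–25.97 to 52.4–86.1 CPM (log2 change 2.98, standard error 0.40, adjusted p = 2.18e-07). Bdh1, which interconverts the ketone bodies, had 223–276 CPM before and 203–334 CPM after (log2 change 0.14, standard error 0.29, adjusted p = 0.779†).

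In gluconeogenesis 8 of 13 genes rose and none fell, with between 3 and 8 rises over 23 alternative fits. For 3 of the 13 the change was called higher than in controls. Pck1, the cytosolic carboxykinase, had 2713, 2891, 3119.8 and 3046 CPM and then 5523, 5809, 4150.0 and 5217 CPM (log2 change 0.81, standard error 0.25, adjusted p = 0.0143†), and every mouse of CT32 lay above every mouse of CT8. Ppargc1a, the coactivator of gluconeogenic genes, had 14.3, 7.22, 22.03 and 15.4 CPM and then 21.7, 30.7, 41.7 and 71.5 CPM (log2 change 1.44, standard error 0.34, adjusted p = 0.00154), with an overlap between a CT8 female and a CT32 male. The transaminases that feed the pathway rose more, Got1 by 1.83 and Gpt2 by 1.47 on the log2 scale, and Gpt2 also rose in controls by 0.53 (adjusted p = 0.0471). G6pc1, the glucose-6-phosphatase, had 137, 433, 170.2 and 260.3 CPM and then 306, 288, 305 and 327 CPM (log2 change 0.31, standard error 0.29, adjusted p = 0.491†). Its CT32 values were tightly grouped, and it was the CT8 mice that ranged widely.

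**Figure D3:**
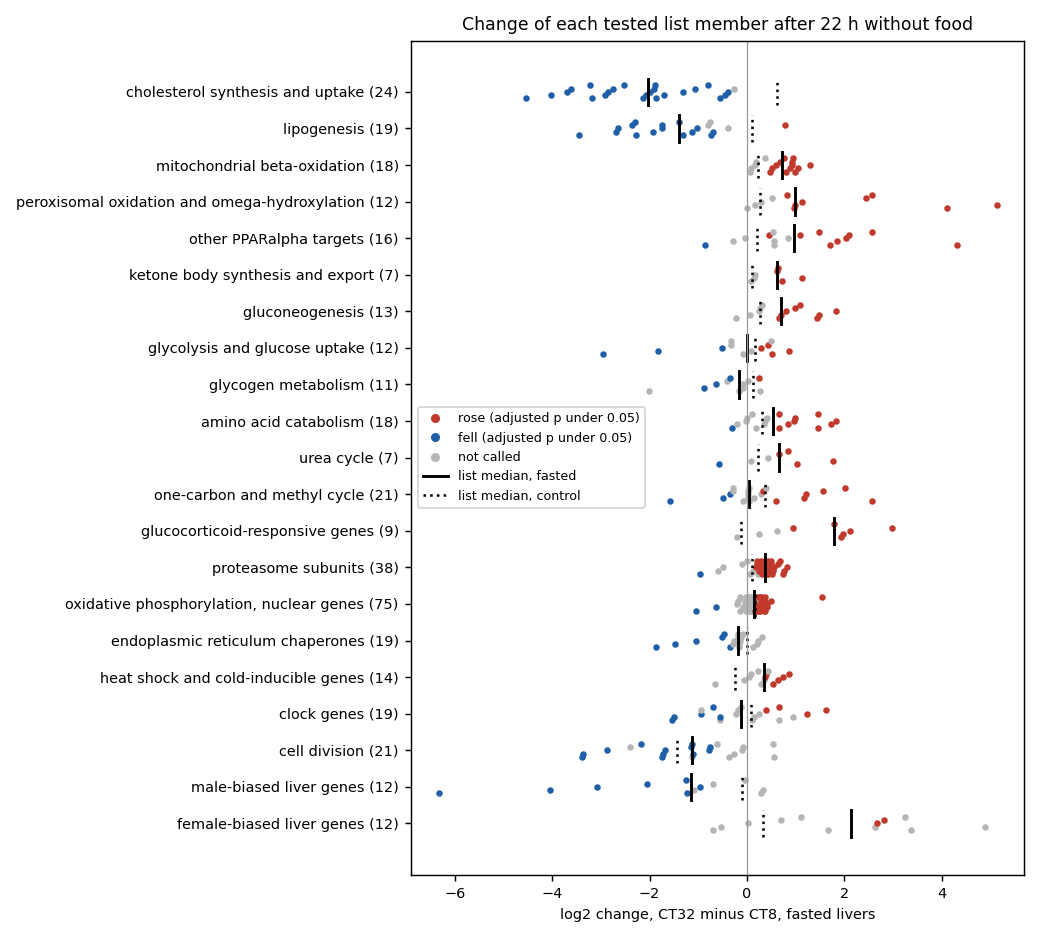
Log2 change from CT8 to CT32 in fasted livers for each tested member of 21 gene lists (number tested in brackets), with genes that rose in red, genes that fell in blue and genes not called in grey, the fasted median as a solid bar and the control median as a dotted bar. The cholesterol and lipogenesis lists lie to the left with medians of -2.03 and -1.40, the oxidation lists to the right, and 30 of 38 proteasome subunits lie in a narrow band above 0.

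Amino acid breakdown and the urea cycle, which dispose of the nitrogen freed by proteolysis, each had more genes that rose than fell. Of 18 catabolic genes 9 rose and 1 fell (Glud1, log2 change -0.30, standard error 0.11, adjusted p = 0.0374†), while 2 rose in controls, and between 3 and 11 rose over the alternative fits. Their median log2 change was 0.53 in fasted and 0.31 in control livers. A difference from controls was called for 2 of the 18, higher in the fasted group for 1 and lower for 1. Tat, the tyrosine aminotransferase and a classical target of glucocorticoids, had 779, 804, 1073 and 1272 CPM at CT8 and 1827, 2279.9, 2672 and 4131 CPM at CT32 (log2 change 1.46, standard error 0.34, adjusted p = 0.00146). Oat, the ornithine aminotransferase, had 578, 616, 405 and 769 CPM and then 1897, 1894, 2007 and 1973 CPM (log2 change 1.71, standard error 0.21, adjusted p = 2.49e-08), but it also rose in controls (log2 change 0.94, adjusted p = 0.00468), and the difference between the 2 changes was not called (adjusted p = 0.0754). Sds, the serine dehydratase, rose by 0.97† with overlapping groups. In the urea cycle 4 of 7 genes rose, or between 2 and 5 over the alternative fits. Here the change was called higher than in controls for 2 genes and lower for 1. Asl, the argininosuccinate lyase, had 441, 391.9, 432 and 519 CPM and then 1345, 1854, 1295 and 1608 CPM (log2 change 1.77, standard error 0.19, adjusted p = 1.68e-09), and Arg1, the arginase, had 1148, 930.2, 1189.6 and 1357 CPM and then 2203, 2534, 2204 and 2443 CPM (log2 change 1.03, standard error 0.18, adjusted p = 2.15e-05). Cps1, which makes carbamoyl phosphate, and Slc25a15, the ornithine carrier, rose by 0.65† and 0.83, whereas Otc, the step between them, fell (log2 change -0.57, standard error 0.17, adjusted p = 0.0103†). Ass1 had 1596–2923 CPM and 2648–4012 CPM (log2 change 0.44, standard error 0.25, adjusted p = 0.22).

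One-carbon metabolism supplies the methyl groups of S-adenosylmethionine. Of its 21 genes, 7 rose, 3 fell and 11 were not called, a share of 47.6% against 22.9% of all genes. The median log2 change was 0.05 in fasted and 0.36 in control livers. A difference from controls was called for 5 of the 21, higher in the fasted group for 3 and lower for 2. In controls 3 rose, namely Ahcy, Bhmt and Dmgdh, and their control calls depended on control CT8 female 2. Mat1a, which makes S-adenosylmethionine in the adult liver, had 2143, 2089, 2968 and 3582 CPM at CT8 and 10322, 11558, 9910.4 and 10724 CPM at CT32 (log2 change 2.01, standard error 0.17, adjusted p = 7.63e-12), and its change exceeded that of controls by 1.58 on the log2 scale (adjusted p = 1.4e-05). Ahcy, which clears S-adenosylhomocysteine, had 999, 944, 839 and 870.2 CPM and then 2025, 2617, 1764 and 2051 CPM (log2 change 1.21, standard error 0.11, adjusted p = 9.89e-12). Bhmt, which remethylates homocysteine with betaine, had 1499.7, 1058, 743 and 1932 CPM and then 7014, 9404, 6920.3 and 7747 CPM (log2 change 2.57, standard error 0.34, adjusted p = 1.54e-07). Bhmt also rose in controls (log2 change 1.496, adjusted p = 0.00485), and for it the difference between fasted and control livers was not called (adjusted p = 0.129). Cth, which turns cystathionine into cysteine, rose by 1.17, Dmgdh, an enzyme of choline breakdown, by 0.59† and Mat2a, the synthase of extrahepatic tissues, by 0.33†. Among the methyltransferases that use S-adenosylmethionine, Nnmt, which methylates nicotinamide, rose from 26.1–86.1 to 101–218 CPM (log2 change 1.56, standard error 0.41, adjusted p = 0.00442). Gamt, the last enzyme of creatine synthesis, fell from 122–238 to 48.7–60.3 CPM (log2 change -1.59, standard error 0.39, adjusted p = 0.00216), and Pemt, which makes phosphatidylcholine, fell by 0.48 on the log2 scale (adjusted p = 0.00108). Mtr, the folate-dependent methionine synthase, fell by 0.34 (adjusted p = 0.00229).

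Genes that respond to glucocorticoids rose in 6 of 9 cases, with a median log2 change of 1.79 in fasted and -0.13 in control livers. Fkbp5, a chaperone partner of the glucocorticoid receptor, had 28.03, 40.3, 73.3 and 49.2 CPM at CT8 and 153, 217, 103 and 168 CPM at CT32 (log2 change 1.79, standard error 0.32, adjusted p = 4.14e-05), and Tsc22d3, an anti-inflammatory target of the receptor, rose by 0.95. Zbtb16 and Cebpd, transcription factors, rose by 1.94 and 1.96. The metallothioneins Mt1 and Mt2, which bind zinc, had 4.21, 13.5, 214 and 121 CPM and 1.41, 2.61, 134 and 63.5 CPM at CT8 and 71.1, 272, 123 and 199 CPM and 38.8, 178, 97.6 and 132 CPM at CT32. Their rises of 2.11† and 2.98† on the log2 scale lay in the males, and the females lay at similar levels at both times, so that the groups overlapped. Between 1 and 7 of the 9 genes rose over 23 alternative fits, with 1 in females alone.

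Of the heat shock and cold-inducible genes 6 of 14 rose (42.9% called, against 22.9% of all genes) and none fell. They were Hspa8, a constitutive chaperone (log2 change 0.75, standard error 0.20, adjusted p = 0.00581), Hsp90ab1, Dnaja1 and Hspd1, at 0.36†, 0.53† and 0.40 on the log2 scale, and the cold-inducible RNA-binding proteins Rbm3 and Cirbp. Rbm3 had 23.8, 25.4, 23.04 and 24.9 CPM at CT8 and 43.9, 36.996, 51.4 and 45.02 CPM at CT32 (log2 change 0.86, standard error 0.15, adjusted p = 2.23e-05), and Cirbp 23.2, 21.1, 27.8 and 25.8 CPM and then 32.3, 39.9, 42.4 and 37.2 CPM (log2 change 0.64, standard error 0.21, adjusted p = 0.0209†). The stress-inducible Hspa1b was not called (log2 change -0.67, standard error 0.60, adjusted p = 0.467). Of 19 chaperones and folding factors of the endoplasmic reticulum 6 fell and none rose, a share of 31.6% against 22.9% of all genes. Sdf2l1, a cofactor of the chaperone BiP, fell from 14.96–29.02 to 4.24–13.2 CPM (log2 change -1.49, standard error 0.34, adjusted p = 0.00115), the disulfide isomerase Pdia6 by 1.06 on the log2 scale, and Derl3, Xbp1, Canx and Edem1 fell too, by 1.87†, 0.51†, 0.48 and 0.34†. BiP itself, encoded by Hspa5, had 445, 309.7, 545 and 520.0 CPM and then 512, 596, 428 and 421 CPM (log2 change 0.11, standard error 0.22, adjusted p = 0.773†). In the integrated stress response, which translation factor kinases set off when amino acids run short, 2 of 15 genes rose and 1 fell, a share of 20% against 22.9% of all genes. Atf5 rose by 0.88, Sesn2 by 1.07† (adjusted p = 0.00552), and Gdf15, a stress hormone, fell from 1.91–6.01 to 1.1003–1.84 CPM (log2 change -1.49, standard error 0.47, adjusted p = 0.0185†).

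Genes of the proteasome, which degrades proteins tagged with ubiquitin, rose by small steps for most of its subunits. Of 38 subunits 30 rose and 1 fell (81.6%), with a median of 0.38 on the log2 scale, and the change was higher than in controls for 17. Psmd9, an assembly chaperone of the regulatory particle, had 31.7, 34.3, 35.6 and 33.4 CPM at CT8 and 59.8, 56.02, 55.7 and 68.2 CPM at CT32 (log2 change 0.83, standard error 0.13, adjusted p = 3.91e-06). The subunit that fell was Psmb10, a catalytic subunit of the immunoproteasome, from 24.03–29.2 to 13.2–14.04 CPM (log2 change -0.97, standard error 0.13, adjusted p = 1.54e-07). The other two catalytic subunits of the immunoproteasome, Psmb8 and Psmb9, were below their CT8 range in every CT32 library but were not called (log2 changes -0.49 and -0.60, adjusted p = 0.0754 and 0.0607). Between 18 and 30 subunits rose over 23 alternative fits. Nuclear genes of oxidative phosphorylation rose by still smaller steps, with 27 of 75 higher and 2 lower and a median of 0.14, close to 0.17 in controls, and the difference from controls was called for 4, or 9 without control CT8 female 2. The lower ones were Cox7a1, a subunit of cytochrome c oxidase which fell by 1.04† on the log2 scale, and Atp5if1, an inhibitor of ATP synthase which fell by 0.64. Cycs, the electron carrier cytochrome c, had 43.8, 38.9, 32.2 and 30.98 CPM and then 52.3, 47.9, 68.9 and 66.7 CPM (log2 change 0.69, standard error 0.10, adjusted p = 4.87e-07). Of the 13 genes that mitochondrial DNA encodes, mt-Nd5, mt-Nd1 and mt-Cytb rose, by 0.53, 0.35† and 0.27. That share of 23.1% is close to the 22.9% of all genes. Of 86 cytosolic ribosomal protein genes 2 rose and 10 fell, a share of 14% against 22.9% of all genes, with a median of 0.00.

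In autophagy and the lysosome 5 of 18 genes rose and 4 fell, a share of 50% against 22.9% of all genes. Only 1 of the 18 had a change called higher than in controls. Bnip3, a mitophagy receptor, had 150.4, 163, 172 and 162 CPM and then 272, 308, 271 and 249 CPM (log2 change 0.76, standard error 0.16, adjusted p = 0.000359), Ctsl, a lysosomal protease, rose by 0.76†, Map1lc3a and Map1lc3b, which coat autophagosomes, by 0.67 and 0.48†, and Atg7 by 0.29†. Ulk1, the kinase that starts the process, fell by 0.39† on the log2 scale, and Atg14, Gabarapl1 and Ctsb by 0.51†, 0.37† and 0.41†.

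Clock genes were compared here at one phase. Of 19 such genes 4 rose and 5 fell in fasted livers (47.4%), with a median of -0.13 on the log2 scale against 0.07 in controls, where none was called, and the difference from controls was called for 5, or 2 without control CT8 female 2. Bmal1, the positive arm of the clock, had 0.993, 0.7596, 2.47 and 0.757 CPM at CT8 and 2.86, 5.29, 3.53 and 3.21 CPM at CT32 (log2 change 1.63, standard error 0.36, adjusted p = 0.000609), whereas controls had 0.833–3.41 CPM and 1.07–1.72 CPM. Between the 2 times it had gone up to 32.99 ± 3.34 CPM (SD, n = 4) at CT20 and 33.2 ± 4.53 CPM at CT24 in fasted livers, far above either. Clock, its partner, rose by 0.39†, and the repressors Cry1 and Ciart by 0.65† and 1.22†. Nr1d1, which encodes REV-ERBα and represses Bmal1, had 129, 188, 203 and 186 CPM and then 122, 123, 84.6 and 49.5 CPM (log2 change -0.96, standard error 0.30, adjusted p = 0.0178†), with the lower values in the females, and Nr1d2 fell by 0.55†. Bhlhe40 and Bhlhe41, repressors that respond to feeding and hypoxia, fell more. Bhlhe40 had 103, 186, 116 and 215 CPM and then 66.7, 75.2, 55.3 and 28.9 CPM (log2 change -1.502, standard error 0.22, adjusted p = 1.55e-06), and Bhlhe41 9.53, 15.2, 4.09 and 5.66 CPM and then 6.24, 5.09, 1.7003 and 0.819 CPM (log2 change -1.54, standard error 0.35, adjusted p = 0.00104), its groups overlapping, with more of it in males than in females at both times. Dbp, an output gene of the clock, had 194, 206, 184 and 243 CPM and then 118, 107, 112 and 91.3 CPM, without overlap but just short of the threshold (log2 change -0.95, standard error 0.36, adjusted p = 0.0512). Per1 and Per2, which mark the negative arm, were not called (33.4–84.7 and 70.3–105 CPM for Per1, 24.001–58.5 and 34.6–53.6 CPM for Per2, adjusted p = 0.159 and 0.816†). Nfil3, a repressor of the same output genes as Dbp, fell overall (log2 change -0.71, standard error 0.23, adjusted p = 0.0227†), but the males had 14.03 and 14.3 CPM and then 15.2 and 14.3 CPM and the females 10.9 and 7.69 CPM and then 2.88 and 3.82 CPM. With no sex in the model 2 of the 19 genes rose and 1 fell, and 3 were called in males alone and 6 in females alone.

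The growth hormone axis sets liver growth signals and the sex bias of liver genes. Of its 13 genes 3 rose and 4 fell, a share of 53.8% against 22.9% of all genes. Ghr, the growth hormone receptor, had 699.9, 641, 448 and 583 CPM at CT8 and 376, 364, 252 and 267 CPM at CT32 (log2 change -0.92, standard error 0.19, adjusted p = 0.000325), without overlap. Igfals, which stabilizes IGF-1 in blood, fell from 119.6–179 to 68.5–127 CPM (log2 change -0.69, standard error 0.26, adjusted p = 0.0481†), and Stat5b and Jak2, which pass the signal of the receptor on, fell by 0.36† and 0.29†. Igfbp1, a binding protein that insulin represses, had 7.18, 18.1, 52.5 and 31.5 CPM and then 30.8, 103, 70.2 and 323 CPM (log2 change 2.31, standard error 0.83, adjusted p = 0.0374†), with wide overlapping ranges, and Igfbp2 and Igfbp4 rose by 0.65† and 0.32. Igf1 itself had 684, 640.3, 695 and 746 CPM and then 725, 657, 518 and 409 CPM (log2 change -0.29, standard error 0.17, adjusted p = 0.253). Socs2, a feedback inhibitor of the receptor, was not called either (log2 change -1.38, standard error 0.67, adjusted p = 0.139†), its CT8 values being spread by female 1. Of 13 genes of insulin signalling and its FOXO branch 2 rose and 2 fell, a share of 30.8% against 22.9% of all genes. Ddit4, which restrains mTORC1, had 2.85, 2.45, 3.57 and 3.27 CPM and then 3.92, 21.8, 13.8 and 29.03 CPM (log2 change 2.47, standard error 0.75, adjusted p = 0.013†), Foxo1 rose by 0.55, and Akt2 and Sesn3 fell by 0.19† and 0.48. Eif4ebp3, a repressor of translation outside the list, was among the largest rises, from 1.18–2.03 to 10.4–31.2 CPM (log2 change 3.36, standard error 0.58, adjusted p = 2.08e-05).

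Genes known to be higher in male liver fell, with 7 of 12 lower and none higher and a median of -1.16, whereas none was called in controls. Hsd3b5, a steroid dehydrogenase and one of the most male-biased liver genes, had 323 and 353 CPM in the males and 5.595 and 21.1 CPM in the females at CT8, and 9.44 and 6.26 CPM and 0.183 and 0 CPM at CT32 (log2 change -6.32, standard error 0.76, adjusted p = 3.48e-08). The sexes kept their order, and the values were lower in each sex. The value of 0 in female 2 allows up to 0.0702 CPM (3 counts, counting error only). Selenbp2 behaved likewise, with 1173 and 757 CPM in males and 89.4 and 66.5 CPM in females before and 72.4 and 100.3 CPM and 2.197 and 4.21 CPM after (log2 change -4.04, standard error 0.47, adjusted p = 9.87e-09), and Slco1a1, an organic anion transporter, fell from 712, 663, 261 and 309.6 CPM to 202, 132, 23.3 and 9.2 CPM (log2 change -3.09, standard error 0.45, adjusted p = 1.48e-06). Serpina1e, C6, Mup20 and Cyp7b1 fell by 2.06†, 1.25, 1.23† and 0.97†. Members of these families, such as the Mup and Serpina1 genes, are close copies between which reads may be split. Among 12 genes known to be higher in female liver 2 rose and none fell, a share of 16.7% against 22.9% of all genes. Their median log2 change was 2.14 in fasted and 0.34 in control livers, but a difference from controls was called for 0 of the 12. The log2 changes weight the sexes equally, and these genes were low in males. Their summed level in the lowest fasted library, a male, was 6.53 CPM at CT8 and 67.7 CPM at CT32. In the highest, a female, it was 2680 and 3298 CPM. Cyp17a1, the steroid hydroxylase, had 6.63 and 3.58 CPM in males and 87.1 and 108 CPM in females at CT8, and 46.4 and 84.2 CPM and 215 and 400.1 CPM at CT32 (log2 change 2.67, standard error 0.52, adjusted p = 0.000166). Between 0 and 8 of the female-biased genes rose over 23 alternative fits. When sex was left out of the model none of these 9 changes was called.

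**Figure D4:**
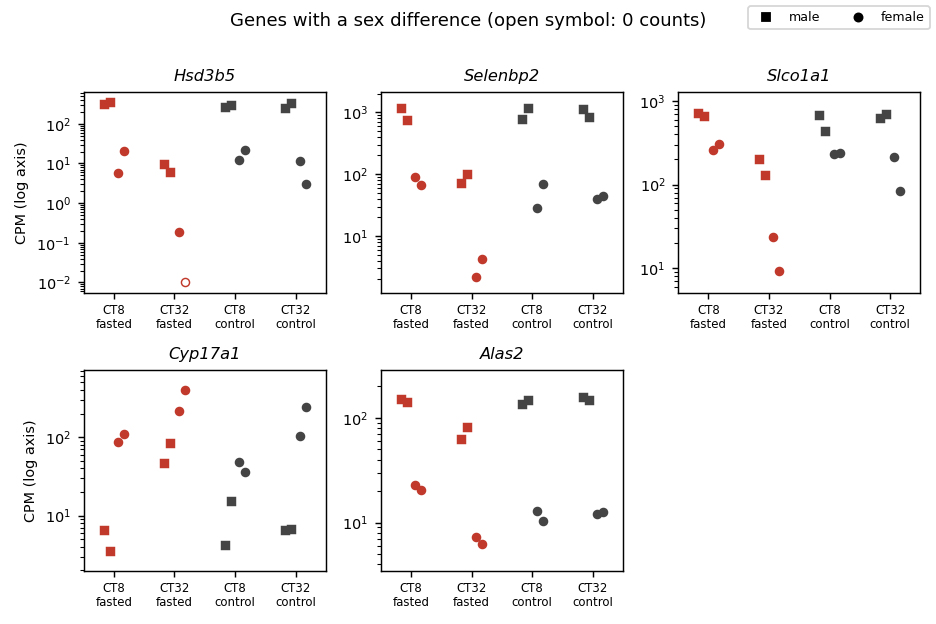
CPM (log axis) of 5 genes with a sex difference in each library of CT8 and CT32, fasted group in red and control group in grey, males as squares and females as circles, with the open circle standing for a count of 0. Hsd3b5, Selenbp2, Slco1a1 and Alas2 were lower in the fasted libraries of CT32 in both sexes, and Cyp17a1 higher, while the order of the sexes stayed the same.

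Whether the change itself differed between males and females was tested directly. No gene of 21187 passed (0%; edgeR, smallest adjusted p = 0.0853), with 1683 at an unadjusted p under 0.05, 0 by limma-voom and 27 by DESeq2. Each sex had 2 mice at each time, which limits what this test can show. The smallest p belonged to Zfp36l1, an RNA-binding protein that speeds mRNA decay, with 131 and 126 CPM rising to 183 and 212 CPM in males and 149 and 173 CPM against 80.7 and 79.01 CPM in females (female minus male change -1.63, standard error 0.32, adjusted p = 0.0853). Next came Cyp2c38 (-1.99), Cycs (0.82), Car2 (1.45) and Crip2 (1.05), with adjusted p between 0.177 and 0.182. Mt1 and Mt2 had female minus male changes of -4.33 and -5.53 (adjusted p = 0.383 and 0.314).

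Cell division genes fell in 12 of 21 cases, with none higher, and 15 of the 21 fell in controls. Without control CT8 female 2, which held the highest summed level of these genes, none of the 21 was called in controls, and the control median went from -1.45 to -0.36. Ccnb1, the mitotic cyclin, had 1.201, 0.688, 0.386 and 0.284 CPM at CT8 and 0.143, 0.0673, 0.0262 and 0.0234 CPM at CT32 (log2 change -3.40, standard error 0.91, adjusted p = 0.00489). Aurkb, a mitotic kinase, fell from 0.232–0.522 to 0–0.117 CPM (log2 change -3.36, standard error 0.998, adjusted p = 0.0114†), with a count of 0 in male 1 and female 1 of CT32, which allows up to 0.0858 and 0.0785 CPM, and Ccnd1, the cyclin of entry into the cycle, had 35.1, 39.4, 117 and 138 CPM and then 12.1, 7.897, 118 and 77.8 CPM with overlapping groups (log2 change -1.14, standard error 0.31, adjusted p = 0.00536). The summed level of the list was 109 to 220.3 CPM at CT8 and 60.6 to 177 CPM at CT32. In controls it was 121 to 870.4 CPM and 129 to 215 CPM, with control CT8 female 2 the highest. The share of counts on Rn18s-rs5 was also higher at CT8 than at CT32, in 3 of the 4 fasted libraries. Within CT8 the lowest summed level of the list was that of male 2, whose share was 2.44%. Share and time largely went together in these 8 libraries, so that a fit with the share as a covariate cannot fully separate them. With that share as a covariate 4 of the 21 genes fell and 1 rose, with limma-voom 3 fell, and in females alone none, while without male 1 of CT8 7 fell. Of 6 genes that halt the cycle 3 rose and 1 fell. Cdkn1a, the cell cycle inhibitor p21, had 1.18, 0.7596, 1.99 and 1.09 CPM and then 7.26, 13.8, 20.3 and 20.9 CPM (log2 change 3.59, standard error 0.57, adjusted p = 6.86e-06), Gadd45g 11.1, 2.35, 4.13 and 2.91 CPM and then 14.2, 43.01, 37.3 and 46.6 CPM (log2 change 2.84, standard error 0.72, adjusted p = 0.00313), and Gadd45b rose by 1.95. Gadd45a fell instead, from 5.51–7.34 to 0.9598–2.83 CPM (log2 change -1.99, standard error 0.34, adjusted p = 1.63e-05). Among 11 immediate early genes 2 fell and none rose, a share of 18.2% against 22.9% of all genes. Egr1 fell from 13.3, 6.29, 106 and 30.6 CPM to 6.15, 3.21, 6.33 and 11.9 CPM (log2 change -1.99, standard error 0.70, adjusted p = 0.0339†), with the highest value in female 1 of CT8, and Junb fell (log2 change -1.004, standard error 0.30, adjusted p = 0.0117†).

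**Figure D5:**
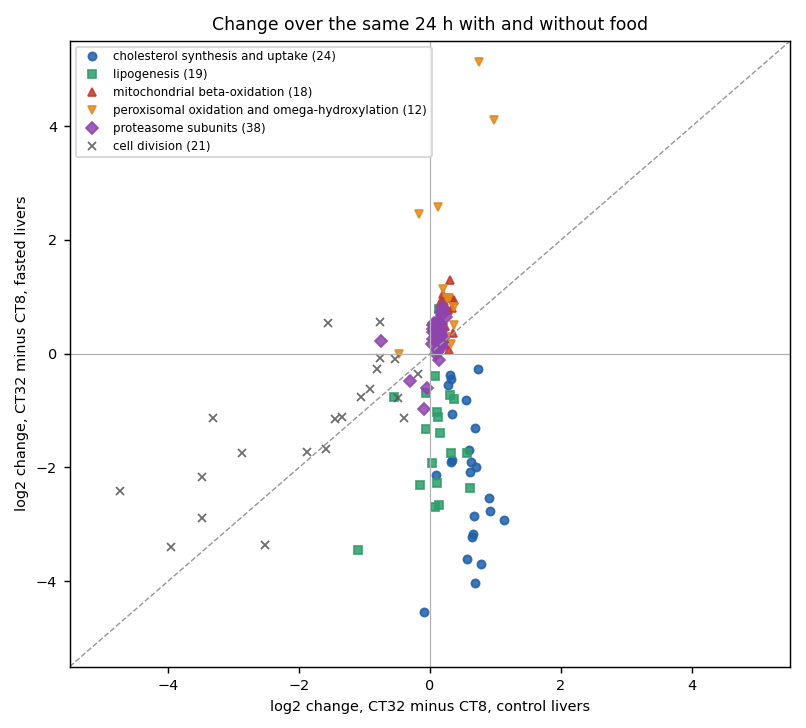
Log2 change from CT8 to CT32 in fasted livers (vertical axis) against control livers (horizontal axis) for the tested members of 6 gene lists, with the line of equal change dashed. Most cholesterol and lipogenesis genes lie below the line, most oxidation genes and proteasome subunits above it, and cell division genes on both sides of it, with falls in both groups.

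Among markers of cells other than hepatocytes the share called was 20% for Kupffer cells, 22.2% for sinusoidal endothelium, 16.7% for cholangiocytes and 20% for B cells, at or below the 22.9% of all genes, and 55.6% for stellate cells. In bulk tissue fewer cells of a type and less RNA per cell cannot be told apart. Of 10 Kupffer cell markers 2 fell, Clec4f (log2 change -0.49, standard error 0.13, adjusted p = 0.00597†) and Adgre1 (log2 change -0.86, standard error 0.25, adjusted p = 0.0098†), and their summed level was 368 to 660 CPM at CT8 and 296 to 566 CPM at CT32. Sinusoidal endothelial markers fell in 2 of 9, Clec4g (log2 change -0.45, standard error 0.12, adjusted p = 0.00356†) and Fcgr2b (log2 change -0.39, standard error 0.10, adjusted p = 0.00284†). Of 9 stellate cell markers 4 fell and 1, Dcn, rose by 0.32†. The collagens fell furthest, with 6.27, 5.65, 15.9 and 5.703 CPM of Col1a1 at CT8 and 1.29, 2.98, 1.28 and 2.25 CPM at CT32 (log2 change -2.04, standard error 0.36, adjusted p = 3.5e-05) and 23.3, 18.7, 48.7 and 25.9 CPM of Col3a1 and then 6.09, 6.98, 7.09 and 9.29 CPM (log2 change -1.93, standard error 0.26, adjusted p = 3.4e-07). Lrat, which stores vitamin A in these cells, fell by 0.98 and Colec11 by 0.32†. The cholangiocyte keratin Krt19 fell from 0.499–1.601 to 0.343–0.538 CPM (log2 change -0.81, standard error 0.30, adjusted p = 0.0457†), 1 of 6. Of 5 B cell markers Ighm fell, from 12.2, 5.03, 87.6 and 9.58 CPM to 4.58, 4.89, 9.84 and 6.55 CPM (log2 change -1.72, standard error 0.46, adjusted p = 0.00551†), but without female 1 of CT8 it did not pass (log2 change -0.54, adjusted p = 0.459). That library also held the highest summed adipocyte markers, 11.5 CPM against at most 1.63 CPM at CT32.

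Bile acid genes divided, with 3 of 17 higher and 4 lower, a share of 41.2% against 22.9% of all genes. Cyp2c70, which makes the muricholic acids of mice, had 509, 349, 514 and 402 CPM at CT8 and 33.3, 51.2, 53.2 and 41.3 CPM at CT32 (log2 change -3.31, standard error 0.24, adjusted p = 5.67e-14), against a log2 change of 0.34 in controls (adjusted p = 0.435), and was among the 5 smallest p for the difference between fasted and control changes. Abcb11, the bile salt export pump, fell by 1.29, and Slco1a1 and Cyp7b1 are described above. Cyp8b1, which sets the share of cholic acid, had 279, 276, 99.6 and 243 CPM and then 688, 642, 423 and 615 CPM (log2 change 1.43, standard error 0.23, adjusted p = 8.13e-06), and rose in controls too (log2 change 1.11, adjusted p = 0.00347). Abcb4, the phospholipid flippase of bile, and Baat rose by 0.86 and 0.32†. Cyp7a1, the rate-limiting enzyme of bile acid synthesis, had 81.7, 65.02, 184 and 82.99 CPM and then 125, 232, 139.7 and 458 CPM (log2 change 1.22, standard error 0.60, adjusted p = 0.141†). Among 14 drug-metabolizing cytochromes P450 and their regulators 2 rose and 3 fell, a share of 35.7% against 22.9% of all genes. Cyp1a2 fell from 243–606 to 123–175 CPM (log2 change -1.75, standard error 0.32, adjusted p = 4.81e-05), Cyp2c29 and Cyp2f2 fell by 0.79 and 0.52†, and Por, the reductase that serves these enzymes, had 460.2, 499, 415 and 608 CPM and then 908, 999.8, 1043 and 1214 CPM (log2 change 1.07, standard error 0.20, adjusted p = 6.46e-05). Cyp2e1, which fasting and ketones are known to induce, rose by 0.66†. Alas1, the first enzyme of haem synthesis in the liver, had 701, 582, 423 and 324 CPM and then 1133, 660.0, 1248 and 1412 CPM, short of the threshold (log2 change 1.16, standard error 0.46, adjusted p = 0.0629), whereas the erythroid form Alas2 was lower in each sex, going from 151, 142, 22.8 and 20.6 CPM to 63.5, 81.6, 7.22 and 6.27 CPM (log2 change -1.35, standard error 0.23, adjusted p = 2.3e-05).

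Of 9 targets of the antioxidant factor NRF2, Srxn1 and Nqo1 rose, Srxn1 from 25.7–34.6 to 53.5–65.1 CPM (log2 change 0.95, standard error 0.14, adjusted p = 1.62e-06) and Nqo1 by 0.91, while Gclc and Gclm, which make glutathione, and the glutathione transferases Gsta4 and Gstm1 fell by 0.76†, 0.39, 0.87† and 0.90. Acute phase proteins rose in 4 of 21 and fell in 1, a share of 23.8% that is close to the 22.9% of all genes. Lcn2, an iron-sequestering protein, had 1.44, 0.807, 3.24 and 2.41 CPM and then 6.26, 41.2, 18.7 and 38.3 CPM (log2 change 3.87, standard error 0.998, adjusted p = 0.00351†), and Serpina3n, Lbp and Itih3 rose by 1.15†, 1.09 and 0.64†. Steap4 fell by 1.01. Saa1 had 16.6–47.6 CPM and 15.01–162 CPM (log2 change 1.08, standard error 0.80, adjusted p = 0.368†). Apolipoproteins and assembly factors of VLDL rose in 6 of 12 and fell in 1 (Apom, log2 change -0.30, standard error 0.08, adjusted p = 0.00607†). Only 1 of the 12 had a change called higher than in controls. Beside Apoa4, Apoa5 had 1305, 1519.7, 1603 and 1301 CPM and then 2205, 1845, 2406 and 2204 CPM (log2 change 0.59, standard error 0.13, adjusted p = 0.000428), and Apoa1 rose by 0.51†. Among hepatocyte markers Ttr, Trf and Fabp1 fell, Ttr from 3476–4313 to 2191–2741 CPM (log2 change -0.70, standard error 0.15, adjusted p = 0.000384) and Trf by 0.60, while Hnf4a rose by 0.48†.

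Outside the lists, 3 further genes were among the 10 largest falls whose groups did not overlap. Slc22a28, an organic anion transporter, fell from 3.72–24.3 to 0.209–2.95 CPM (log2 change -3.94, standard error 0.53, adjusted p = 2.81e-07) and Prok1, a secreted peptide, from 4.23–8.95 to 0.247–0.8295 CPM (log2 change -3.70, standard error 0.56, adjusted p = 2.65e-06). Car3, a carbonic anhydrase abundant in male liver, had 3266, 3514, 949 and 1971 CPM and then 285, 254, 177 and 211 CPM (log2 change -3.28, standard error 0.67, adjusted p = 0.000289). Cntnap1, a membrane protein of axons, rose from 1.23–3.24 to 6.82–40.2 CPM (log2 change 3.49, standard error 0.50, adjusted p = 1e-06). By p-value, the difference between the fasted and the control change was among the clearest for Fdps, Cyp51, Nsdhl and Cyp2c70, with differences of -4.72, -3.87, -3.83 and -3.65 on the log2 scale. The 5 with the smallest p in controls were Ikzf1, H2ax, D17H6S56E-5, Atad2 and Kmt2d, of which Atad2 (log2 change -1.18, standard error 0.23, adjusted p = 0.000163) and Kmt2d (log2 change -0.45, standard error 0.09, adjusted p = 0.000107) fell in fasted livers too.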

How the data were processed

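Liver RNA from 80 mice was sequenced as stranded libraries of polyadenylated RNA. The authors deposited 1 table of raw gene counts, and their processing notes name Trimmomatic, HISAT2, DESeq2 and the GRCm39 build, while the counting program and all versions are not given in the sources used here. Groups and sex were taken from the titles. Counts were filtered with filterByExpr, scaled by TMM and fitted with edgeR 4.0.16 in R 4.3.3 (quasi-likelihood test) over all 80 libraries with a mean for each of 40 combinations of treatment, sex and time (Benjamini-Hochberg adjustment over the 21187 genes tested). Libraries held 25534901 to 59927771 counts, and CPM use TMM-scaled library sizes. The 50 gene lists and the comparison were chosen with earlier results of these data known. Named genes are those marked in a list, up to 2 further called members of it, the 10 largest rises and falls without overlap and the 5 smallest p of each other contrast. Those not called are given only where a comparison turns on them, and members named to break down small counts were chosen after their values were seen. Some genes are not reported here. Alternatives used limma 3.58.1 and DESeq2 1.42.0. Scripts were tested on simulated data. At CT8 and CT32 no 2 libraries of a fasted or control group were alike within sampling noise (lowest chi-square per degree of freedom 30.9 over 24 pairs). Pairs at other times were not examined.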

Additional observations from a re-analysis of the deposited data

Results flagged for a closer look

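Of 434 groups of 4 libraries examined on the log2 scale, 16 held a value far from the other three. Chance flags about 1 in 20 such groups. At CT8 female 1 stood apart in the fasted group with 15.9 CPM of Col1a1, 529 CPM of Hspa8, 119.6 CPM of Lbp and 118.6 CPM of Socs2, all above the other mice, and with 99.6 CPM of Cyp8b1 and 4.23 CPM of Prok1, below them. Female 2 of CT8 was high in Acat1 at 419 CPM and Pemt at 271 CPM. At CT32 male 2 was low in Acadm at 468 CPM and Etfdh at 404 CPM, and male 1 in Krt19 at 0.343 CPM and Thrsp at 23.8 CPM. Female 2 of CT32 was high in Apoa1 at 11092 CPM and low in Gstm1 at 369 CPM, and female 1 was high in Jak2 at 17.3 CPM. In controls male 1 of CT32 held 1.38% of its counts on Rn18s-rs5, above the other three.

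In 3 named genes both fasted males of CT32 lay on one side of both males of CT8 and both females of CT32 on the opposite side of those of CT8, though the males of Nfil3 differed by little (14.03 and 14.3 CPM against 15.2 and 14.3 CPM). The female change minus the male change was -0.88 for Hspa5, -1.54 for Nfil3 and -1.63 for Zfp36l1 on the log2 scale, and the test of this difference did not pass for any of them (edgeR, adjusted p = 0.634, 0.314 and 0.0853).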

How the results depend on the processing

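The 4849 genes changed in fasted livers became 2833 at an adjusted p under 0.01, 2641 at a change of at least 1.5 times and 3085 with no sex in the model. They became 2456 in males alone, 1940 in females alone and 3728 with the Rn18s-rs5 share as a covariate. Fewer genes than 4849 were called whichever fasted mouse was left out, with the fewest without male 1 of CT8. More were called without control CT8 female 2, a library outside the comparison and the only control library left out for this count. Slightly more were also called with DESeq2 (5146), upper-quartile scaling (4889), DESeq2 size factors (4860) and Rn18s-rs5 left out (4861). The 805 control genes became 261 at an adjusted p under 0.01, 1513 with no filter on low counts, 51 with limma-voom, 53 with the Rn18s-rs5 share as a covariate and 0 with only the libraries compared (edgeR, 1775 at an unadjusted p under 0.05), and lay between 26 and 2601 with 1 library left out. The 1977 genes whose change differed from controls became 792 at an adjusted p under 0.01, 897 with no sex in the model, 525 in males alone, 1045 in females alone and 1039 without both libraries richest in Rn18s-rs5, and lay between 1208 and 2795 with 1 library left out. The sex difference, with 0 genes (edgeR, 1683 at an unadjusted p under 0.05), had 442 with no filter on low counts, 27 with DESeq2 and 11 with only the libraries compared, and between 0 and 1 with 1 library left out. The cause of these differences was not tested. The covariate and the omission of control CT8 female 2 and of both Rn18s-rs5-rich libraries were chosen after seeing the data. With upper-quartile scaling 53.4% of the genes called in fasted livers were higher, against 48.4%. The control split of 20.9% higher became 8.18% with no sex in the model.

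Titles number the mice within a sex, but same-numbered mice of CT8 and CT32 did not deviate together (correlations of -0.06 in males and 0.04 in females), so the numbers are only names. With a replicate block 4750, 682, 1841 and 0 genes were called in the 4 comparisons. Where leaving out a mouse left an arm with 1 mouse, that mouse was assumed to vary like the other groups.

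Of 213 named genes 64 kept direction and side of the threshold for the fasted change in each of 23 alternatives. Of 188 called ones 71 lost the call without some single mouse of the 8. Atg7, Baat, Cyp2e1, Derl3, Dnaja1, Hsp90ab1 and Xbp1 lost it whichever mouse was left out. For the control change none of the 19 named genes kept its call in each of 19 alternatives. Over the 23 alternatives the number of genes that rose ran from 8 to 31 for nuclear oxidative phosphorylation, from 4 to 8 for one-carbon metabolism, from 2 to 7 for heat shock and cold-inducible genes, from 2 to 6 for apolipoproteins and from 1 to 6 for autophagy, and the number that fell from 2 to 6 for endoplasmic reticulum chaperones and from 0 to 9 for male-biased genes. Without female 1 of CT8 the change of Krt19 was -0.45, of Mup20 -0.57, of Serpina1e -1.23 and of Ighm -0.54, none of them called. Without female 2 of CT8 that of Thrsp was -1.38 and of Edem1 -0.22, and without male 2 of CT8 that of Dcn 0.20, also not called. Without male 2 of CT32 Ddit4 had 1.61 and was not called, while Scd1 without female 1 of CT32 had -3.47 and Aurkb without female 2 of CT32 -5.58, both called. The sign turned in males alone for Igf1 (0.062), Zfp36l1 (0.62), Bdh1 (-0.030), Per2 (-0.12) and Nfil3 (0.064), and for the difference from controls for Nr1d1 (0.074), Junb (0.061), Mat2a (-0.0071) and Nfil3 (0.083). In females alone it turned for Hspa5 (-0.32), Gys2 (0.0088) and Mt1 (-0.046), and for the difference from controls for Mt2 (-0.96) and Atf5 (-0.27). With 1 fasted mouse left out Hspa5 ran from -0.0056 (without male 2 of CT8) to 0.26 and Per2 from -0.16 (without female 1 of CT8) to 0.48. With 1 mouse left out the difference from controls of Ikzf1 ran from -0.10 (without control CT8 female 2) to 2.36, and it turned to -0.16 without both Rn18s-rs5-rich libraries and, in fasted livers, to 0.18 with the covariate, with which Fgf21 had -0.26.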
